A study of Mus musculus with 2 samples.

Results

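The genes described here are 10 enzymes and carriers that burn long-chain fatty acids in mitochondria, namely Cpt1a, Slc25a20, Cpt2, Crat, Acadvl, Acadl, Acadm, Hadha, Hadhb and Etfdh. They were listed by name, with earlier results of these arrays known, and no threshold on measured values was used. Their probes were found by the RefSeq accession printed beside each probe, which gave 12 probes in 21 spots, out of 39426 gene probes and 20017 named genes on the array. All 10 were well above background on both arrays, as were 15975 of the named genes.

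RNA was isolated from glomerular regions cut out from the kidneys of male mice, made diabetic, whose strain background was C57BL/6J, and was hybridised, labelled with Cy3, to Agilent mouse arrays. The TG+STZ array carried RNA of Sirt1-overexpressing transgenic mice and the WT+STZ array RNA of wild type mice. Both groups had been given streptozotocin (STZ), which kills the insulin-making cells of the pancreas, in 100 mmol/l citrate buffer at 8 weeks of age, and both were killed at 32 weeks, so no nondiabetic comparison is made. The series title places Sirt1, an NAD-dependent protein deacetylase, in the renal tubule, while the promoter of the transgene and the number of mice behind each array are not stated in the labels. With 1 array for each genotype, differences could not be tested and are given as descriptions of 2 arrays.

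Long-chain fatty acids enter mitochondria as carnitine esters and are then shortened in a repeated cycle of dehydrogenation, hydration, a second dehydrogenation and cleavage. Electrons from the first step pass through the electron transfer flavoprotein and its oxidoreductase to ubiquinone. The proximal tubule of the kidney is known for drawing much of its energy from this pathway, and PPAR-alpha, a lipid-sensing nuclear receptor, and its coactivator PGC-1alpha are known to drive transcription of many of its genes.

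The median processed signal of the 43020 gene spots was 180 intensity units on the TG+STZ array and 173 on the WT+STZ array. Scaled values are log2 of the signal minus log2 of the 75th percentile of the gene spots on the same array, which was 2042 units for TG+STZ and 1933 for WT+STZ. A difference is the scaled TG+STZ value minus the scaled WT+STZ value, and the value after ± is the scanner software's own error of that difference. That error is close to 0.20 for any gene with 1 bright probe and covers neither mice nor hybridisations. Sirt1 itself read 2977 units in TG+STZ and 2625 in WT+STZ, a log2 difference of 0.10 ± 0.20 from 1 probe. The labels do not say if this probe detects the transgene, so the value is no check of them.

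The 10 genes had nearly the same signal on both arrays. Of the 10, 7 lay above 0 and 3 below, against 50.9% of all genes above 0. Their median difference was 0.10 and their range ran from -0.20 for Crat to 0.24 for Acadl, whereas the median over all genes was 0.00. None was 1.5-fold apart, a threshold that 3.66% of all genes passed. Beyond their own scanner error lay 2 of the 10, Cpt1a and Acadl, against 23.7% of all genes. Cpt1a did so only with its 2 probes averaged, since the error of a gene shrinks with the number of its probes. Taken alone, these probes stood at 0.18 ± 0.20 and 0.14 ± 0.20.

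**Figure D1:**
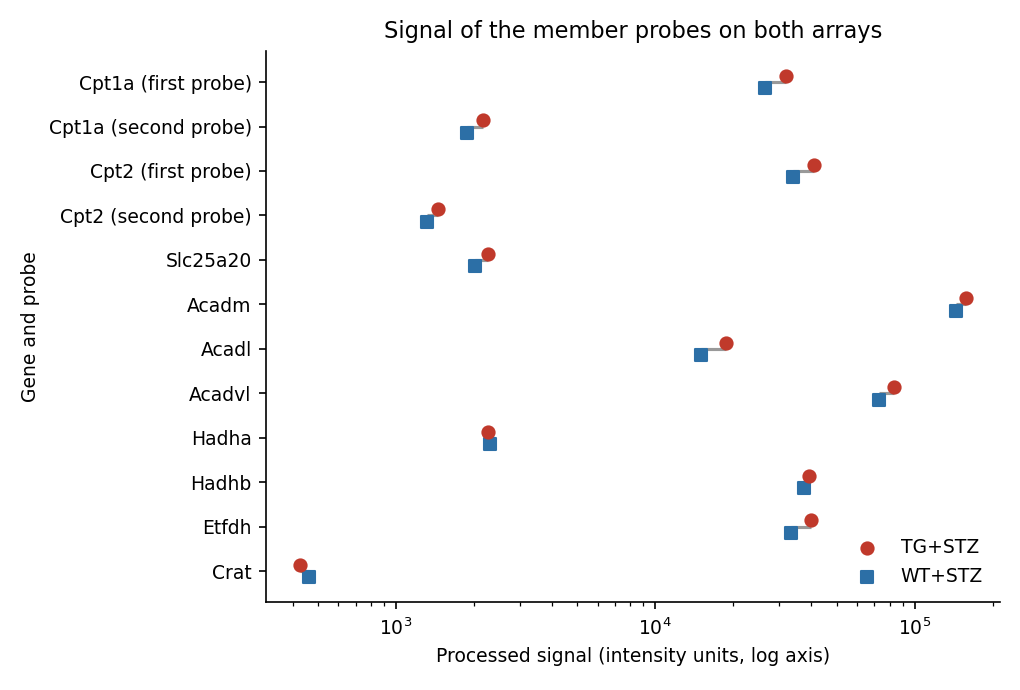
Processed signal in intensity units, on a log axis, of the 12 probes of the member genes, with circles for the TG+STZ array and squares for the WT+STZ array. The TG+STZ circle lies to the right for most probes and to the left for Hadha and Crat. Distances between rows cannot be read as differences in transcript level, since probes differ in how brightly they hybridise.

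Carnitine-dependent entry is the first control point of the pathway. Cpt1a encodes the liver-type carnitine palmitoyltransferase of the outer mitochondrial membrane, which joins long-chain fatty acids to carnitine and sets the rate of the pathway. One of its probes was spotted 10 times on each array, which makes it the most closely measured of the 10 genes. Its 10 spots read 29577 units at the lowest, 31736 at the median and 33227 at the highest on the TG+STZ array. On the WT+STZ array they read 25655 at the lowest, 26321 at the median and 27544 at the highest. Before scaling, the spots of the 2 arrays did not overlap, while the 75th percentiles of the arrays themselves differed by 0.08 on the log2 scale. How many other repeated probes had spots that did not overlap was not counted, so the lack of overlap cannot be called particular to Cpt1a. Spot by spot, the scaled log2 difference ran from 0.13 to 0.21, with a mean of 0.18 and an SD of 0.025 over the 10 spots. These spots share 1 RNA and 1 hybridisation on each array, so the SD is technical and says nothing of the spread between mice. Over the 319 probes that were spotted 10 times and lay well above background, the median SD was 0.034.

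**Figure D2:**
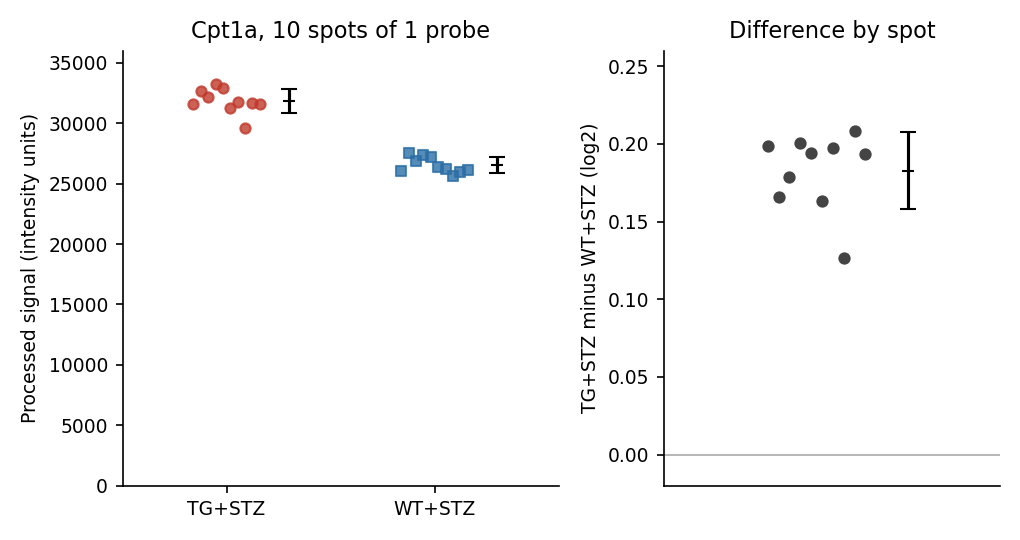
Left, processed signal in intensity units of the 10 spots of the repeated Cpt1a probe, with the TG+STZ array left of the WT+STZ array. Right, the scaled log2 difference, TG+STZ minus WT+STZ, of each spot. Bars give the mean and SD over spots. All 10 differences lie above 0, between 0.13 and 0.21.

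The second Cpt1a probe was much dimmer, with 2176 units in TG+STZ and 1872 in WT+STZ, yet it gave a similar log2 difference of 0.14. Averaged over both probes, Cpt1a stood at 0.16 ± 0.14, or 1.12-fold. Brightness thus differed widely between probes of the same transcript, and for this reason signals are compared only between arrays and not between genes.

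Slc25a20, the carrier that moves acylcarnitines across the inner membrane, read 2272 units in TG+STZ and 2022 in WT+STZ, a log2 difference of 0.09 ± 0.20. Cpt2, the carnitine palmitoyltransferase of the inner membrane that returns the acyl group to coenzyme A, had 2 probes. Its brighter probe read 41081 units in TG+STZ and 34052 in WT+STZ, and the dimmer probe read 1459 in TG+STZ and 1320 in WT+STZ. Both probes lay above 0, at 0.19 and 0.07 on the log2 scale, and together they stood at 0.13 ± 0.14. The 3 genes that carry long chains into the matrix were thus all slightly higher on the TG+STZ array, by 1.06-fold to 1.12-fold. Slc25a20 and Cpt2 lay within their scanner error. Among all genes of like signal, as set out below, 54.0% lay above 0 for Slc25a20 and 65.1% for Cpt1a and Cpt2.

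Crat, which exchanges acetyl and other short acyl groups between carnitine and coenzyme A, went the other way. It read 426 units in TG+STZ and 462 in WT+STZ, a log2 difference of -0.20 ± 0.20, the lowest of the 10. Its spot was well above its local background, which was 26.5 units in TG+STZ and 26 in WT+STZ.

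The acyl-CoA dehydrogenases take the first step of each cycle and differ in the chain length they prefer. Acadvl, for very long chains, read 83362 units in TG+STZ and 72852 in WT+STZ, a log2 difference of 0.12 ± 0.20. Acadl, for long and branched chains, read 18673 in TG+STZ and 14996 in WT+STZ, at 0.24 ± 0.20. Acadm, for medium chains, read 158333 in TG+STZ and 144829 in WT+STZ, at 0.05 ± 0.20. All 3 lay above 0, and Acadl was the highest of the 10 genes at 1.18-fold. The spread among the 3 was smaller than the scanner error of each, and no order by chain length can be read from it.

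Hadha and Hadhb encode the alpha and beta subunits of the mitochondrial trifunctional protein, which carries out the last 3 steps for long chains. The alpha subunit holds the hydratase and hydroxyacyl dehydrogenase and the beta subunit the thiolase. Hadha read 2266 units in TG+STZ and 2302 in WT+STZ, a log2 difference of -0.10 ± 0.20. Hadhb read 39244 in TG+STZ and 37468 in WT+STZ, at -0.01 ± 0.20. Both subunits thus lay below 0 by less than the scanner error, and Hadhb was the single member whose side of 0 changed with the processing, between -0.08 and 0.02.

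Hadha and Hadhb are neighbours read in opposite directions. In RefSeq's promoter windows on GRCm38.p6 their starts lie 273 bases apart, and the 250 bases upstream of one share 228 bases with the 250 bases upstream of the other, read on the opposite strand. The window of Hadhb is shown because it holds all 228 bases that both subunit genes share.

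Hadhb, chr5:30155003-30155252, plus strand: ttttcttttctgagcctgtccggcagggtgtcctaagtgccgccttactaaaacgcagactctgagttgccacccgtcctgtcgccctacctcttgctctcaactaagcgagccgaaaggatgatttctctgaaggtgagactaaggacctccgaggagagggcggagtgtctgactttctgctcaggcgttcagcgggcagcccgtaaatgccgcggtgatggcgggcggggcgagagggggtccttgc

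Etfdh encodes the oxidoreductase that passes electrons from the electron transfer flavoprotein to ubiquinone, and so links the dehydrogenases to the respiratory chain. It read 39732 units in TG+STZ and 33422 in WT+STZ. Its log2 difference was 0.17 ± 0.20, or 1.13-fold, the second highest of the 10 genes.

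**Figure D3:**
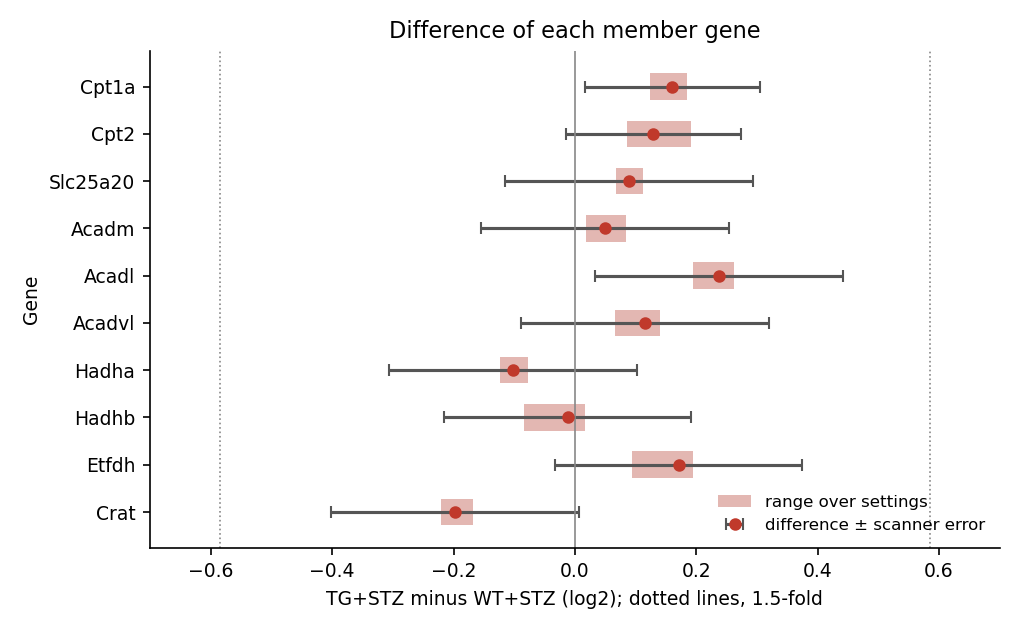
Scaled log2 difference, TG+STZ minus WT+STZ, of each of the 10 genes, with bars for the scanner software's error. Shaded boxes span the values under the main and the 12 other settings, and dotted lines mark 1.5-fold. No gene reaches 1.5-fold, and only the box of Hadhb crosses 0.

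The promoter windows of the 9 genes with an entry in RefSeq's table, all but Crat, were searched on both strands, over the 250 bases before the start, for motifs of factors tied to mitochondrial genes. The ETS core, CCGGAAG, was found in Cpt2 and Slc25a20, and in 6.91% of the 32851 promoter windows of all genes. The site of the oestrogen-related receptors, AAGGTCA, was found in Acadm, and in 4.08% of all windows. The core of the NRF1 motif, CATGCGC, was found in Acadm and Etfdh, and in 3.24% of all windows. The direct repeat bound by PPAR-alpha, AGGTCANAGGTCA, with up to 2 mismatches, was in none of the 9 windows and in 1063 of the 32851. The receptor site overlaps part of the direct repeat. A match is a run of letters and not a known site, and no match speaks of this window alone. The 4 windows with a match are printed 5′ to 3′ so that the matches can be seen in place, with the match in capitals.

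Cpt2, chr4:107923590-107923839, minus strand: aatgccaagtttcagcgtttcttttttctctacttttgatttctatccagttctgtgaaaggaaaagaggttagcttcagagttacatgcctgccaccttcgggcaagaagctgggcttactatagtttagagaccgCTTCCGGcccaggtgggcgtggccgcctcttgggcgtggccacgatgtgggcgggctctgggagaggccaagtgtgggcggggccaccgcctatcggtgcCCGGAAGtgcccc
Slc25a20, chr9:108661886-108662135, plus strand: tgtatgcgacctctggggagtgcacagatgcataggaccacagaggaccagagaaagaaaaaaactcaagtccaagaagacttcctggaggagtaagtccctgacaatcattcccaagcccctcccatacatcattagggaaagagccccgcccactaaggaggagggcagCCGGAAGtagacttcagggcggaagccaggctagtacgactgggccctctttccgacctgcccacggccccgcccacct
Acadm, chr3:153944644-153944893, minus strand: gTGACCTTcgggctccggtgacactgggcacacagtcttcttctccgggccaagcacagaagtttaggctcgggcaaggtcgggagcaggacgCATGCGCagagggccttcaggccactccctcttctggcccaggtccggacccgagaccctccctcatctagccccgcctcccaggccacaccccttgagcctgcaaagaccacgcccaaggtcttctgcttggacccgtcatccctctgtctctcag
Etfdh, chr3:79628768-79629017, minus strand: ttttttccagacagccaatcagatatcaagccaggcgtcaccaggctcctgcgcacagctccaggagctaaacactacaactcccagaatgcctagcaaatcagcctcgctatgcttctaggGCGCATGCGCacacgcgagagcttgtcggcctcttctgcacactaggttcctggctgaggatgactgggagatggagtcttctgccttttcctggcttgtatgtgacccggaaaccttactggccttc

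In Cpt2 the ETS core occurs once on each strand, the copy nearer the start being on the printed strand. In Etfdh the NRF1 core occurs on both strands, in overlapping copies that together make the 1 run of capitals. The 4 genes with a match stood between 0.05 and 0.17 on the log2 scale, and Acadl, the highest of the 10, held none of these motifs. A link between motifs and differences was not tested. The window of Cpt1a also held none and is not printed, because it lies inside the annotated span of its gene.

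Differences on these arrays drifted with brightness, and most of the 10 genes were bright. When all genes were split by signal into 10 groups of equal size, the median log2 difference was -0.06 in the dimmest group and 0.04 in the brightest. In the brightest group, which holds Acadm, Acadl, Acadvl, Hadhb and Etfdh, 71.0% of genes lay above 0. In the next one, with Cpt1a and Cpt2, 65.1% did. Of these 7 member genes 6 lay above 0. In the group with Slc25a20 and Hadha 54.0% of genes lay above 0, and in that with Crat 40.1%. After a loess correction for signal, 7 of the 10 genes lay above 0, against 51.1% of all genes. Their median was then 0.08, against 0.003 over all genes.

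**Figure D4:**
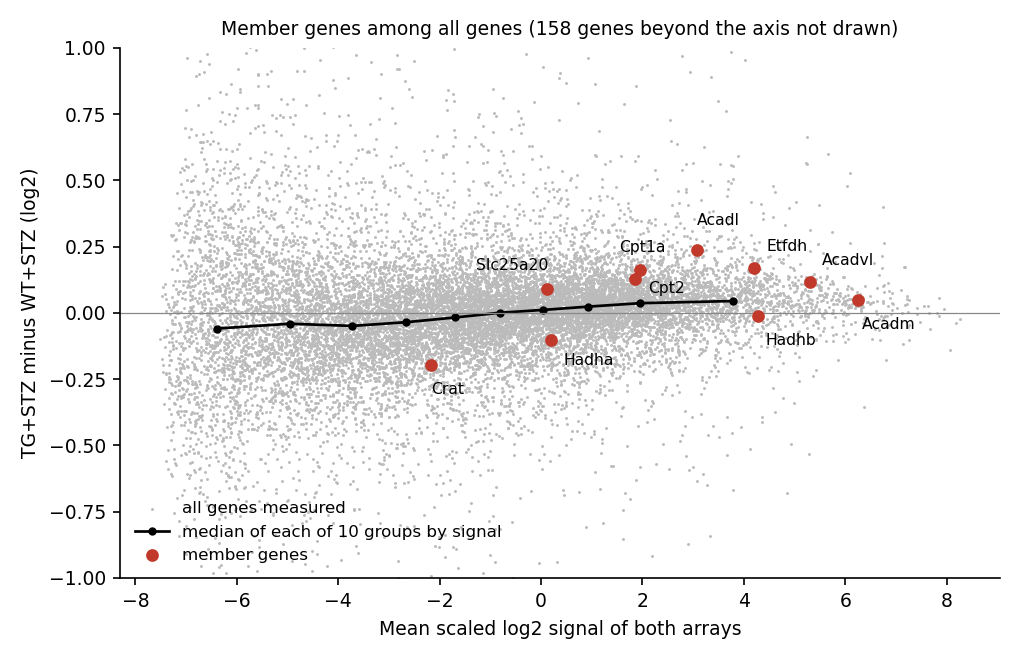
Scaled log2 difference, TG+STZ minus WT+STZ, against the mean scaled log2 signal of both arrays, for all genes (grey) and the 10 member genes (red, named). The black line joins the medians of the 10 groups by signal, which run from -0.06 in the dimmest to 0.04 in the brightest. The 158 genes beyond 1 on either side are not drawn.

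The other enzymes of mitochondrial beta-oxidation lay in a similar range, from -0.20 to 0.24. Of 20 measured, 13 lay above 0 and 7 below, with a median of 0.04, and none was 1.5-fold apart. Decr1, which prepares unsaturated chains, was furthest at 0.24 ± 0.14, with 44156 units in TG+STZ and 35619 in WT+STZ and both its probes at 0.23 and 0.24. Eci2, an enoyl-CoA isomerase, stood at 0.21 ± 0.20, while its relative Eci1 stood at -0.20 ± 0.20.

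Partners of the 10 genes also lay close to 0. Cpt1b, the muscle-type counterpart of Cpt1a, read 769 units in TG+STZ and 696 in WT+STZ, at 0.05 ± 0.14. Cpt1c, the form known from brain, was dim and stood at 0.05 ± 0.16. The short-chain dehydrogenase gene Acads stood at 0.10, and Acad9, a relative that is needed for assembly of respiratory complex I, at 0.17. Hadh, the hydroxyacyl dehydrogenase for shorter chains, stood at 0.13, and Acaa2, the matching thiolase, at -0.11. The flavoprotein subunits Etfa and Etfb, which hand electrons to the product of Etfdh, stood at 0.10 ± 0.14 and 0.04 ± 0.20. None of these partners was further from 0 than its scanner error.

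Genes that supply carnitine or make and remove malonyl-CoA, the inhibitor of Cpt1a, had a median of 0.09, with 5 of 9 above 0. Slc22a5, the carnitine transporter, stood at 0.09 ± 0.20 and Acacb, the carboxylase that makes malonyl-CoA at mitochondria, at -0.02 ± 0.15. Crot, the peroxisomal carnitine octanoyltransferase, was higher in TG+STZ at 0.29 ± 0.20. Bbox1, the last enzyme of carnitine synthesis, was lower at -0.79 ± 0.21, from a dim probe with 90.2 units in TG+STZ and 148 in WT+STZ, and was the single gene of the list past 1.5-fold, where 1.91% of all genes were that much lower.

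Steps before and beside the mitochondrial cycle also had medians near 0, with single genes further away. Genes of fatty acid uptake and activation had a median of 0.03, with 11 of 18 above 0. Acsm3, which activates medium chains, stood at 0.57 ± 0.14, with 92955 units in TG+STZ and 59456 in WT+STZ, and its probes lay at 0.54 and 0.59. Fabp1, the liver fatty acid binding protein, was lower at -0.88 ± 0.20. Peroxisomal beta-oxidation had a median of 0.09, with 10 of 16 above 0. Ehhadh, its bifunctional enzyme, stood at 0.36 ± 0.20. No peroxisomal gene passed 1.5-fold, and 3 of the 16 lay beyond their own scanner error.

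Genes listed as responsive to PPAR-alpha had the median furthest from 0 of the metabolic lists. Whether each of them responds to it in the kidney of these mice was not tested. Of 18 measured, 17 lay above 0, with a median of 0.30, and 4 were at least 1.5-fold higher, against 1.75% of all genes. The 1 gene below 0 was Fabp1, which was also past 1.5-fold. Fat cell markers were higher on the same array, 8 of 9 above 0 with Cfd, a protease secreted by fat cells, at 4.82, and their part in the values of this list was not tested. Cyp4a14 and Cyp4a12a, which hydroxylate fatty acids at the end of the chain, stood at 1.40 ± 0.20 and 0.98 ± 0.20. Both belong to a family of close relatives whose transcripts can share a probe. This list was put together with earlier results of these arrays known and shares genes with other lists, Ehhadh, Cpt1b and Fabp1 among them, so it is no independent evidence of a direction. The 10 mitochondrial genes lay between -0.20 and 0.24. The receptor gene Ppara itself stood at -0.08 ± 0.12 and Ppargc1a, which encodes PGC-1alpha, at -0.09 ± 0.14. Regulators of the pathway had a median of 0.04, with 15 of 20 above 0. Nr1h4, the bile acid receptor FXR, was furthest at 0.47 ± 0.20, followed by Lpin1, a phosphatidate phosphatase and coactivator, at 0.33 ± 0.15. The Lpin1 value averages a brighter probe and a dim one at 0.49, with 58.0 units in TG+STZ and 39.2 in WT+STZ. The brighter probe stood at 0.17 ± 0.20, with 2671 units in TG+STZ and 2253 in WT+STZ.

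The citric acid cycle oxidises the acetyl-CoA that beta-oxidation yields. Its genes had a median of 0.06 and none was past 1.5-fold, with 16 of 18 above 0, against 50.9% of all genes. Ogdh, a subunit of the oxoglutarate dehydrogenase, was furthest at -0.15 ± 0.12, from 3 probes that ran from -0.50 to 0.08, and Sdhc, a subunit of succinate dehydrogenase, was next at 0.13 ± 0.14. After the loess correction for signal, 12 of the 18 genes of the cycle lay above 0, with a median of 0.03. Ketone body genes had a median of 0.02, with 4 of 7 above 0 and none past 1.5-fold. Acat1, the mitochondrial acetoacetyl-CoA thiolase, stood at 0.13 ± 0.20 and the monocarboxylate transporter Slc16a1 at -0.07 ± 0.21.

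**Figure D5:**
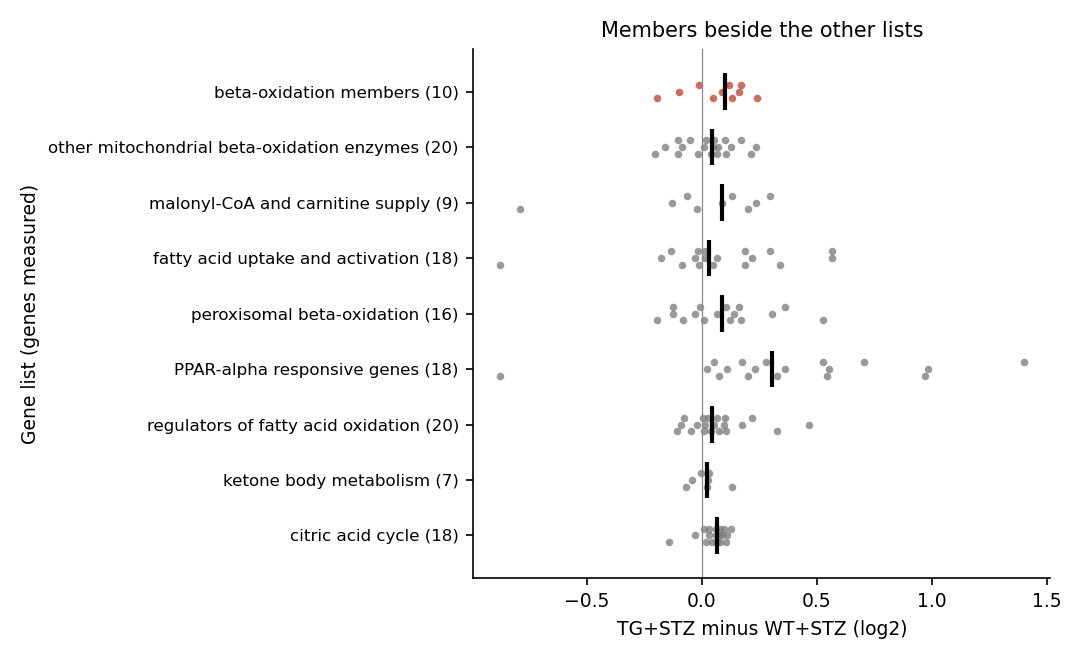
Scaled log2 difference, TG+STZ minus WT+STZ, of each gene in the lists of fatty acid and mitochondrial metabolism, with 1 point a gene, the 10 member genes in red and a black bar at each median. The members lie between -0.20 and 0.24, and the list of PPAR-alpha responsive genes reaches from -0.88 to 1.40.

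The RNA was that of a mixture of cells, and fewer cells of a type and less RNA per cell cannot be told apart in it. Proximal tubule markers summed to 2604410 units in TG+STZ and 2442263 in WT+STZ over 18 genes, 10 of them above 0, with a median difference of 0.02. The furthest went opposite ways, the organic anion transporter Slc22a8 at -0.56 and the urate transporter Slc22a12 at 0.27. Sums here add processed signals before scaling, so bright probes dominate them, and the median scaled difference is given beside each. Podocyte markers summed to 32097 units in TG+STZ and 35286 in WT+STZ, with 5 of 12 above 0, a median of -0.08 and Nphs1, which encodes nephrin, at -0.89. Transcripts of both kinds of cell were thus present in the RNA. Markers of glomerular endothelium and mesangium had 1 of 12 above 0 (30872 units in TG+STZ and 31400 in WT+STZ) and a median of -0.11, with Serpine2 at -0.34 and Plat at -0.30. Markers of the loop, distal tubule and collecting duct had 3 of 12 above 0 (425452 units in TG+STZ and 406546 in WT+STZ) and a median of -0.15, with Slc26a4 at -0.63 and Atp6v1g3 at -0.44. In that sum Umod, which encodes uromodulin and stood at 0.05, alone gave 306908 units in TG+STZ and 280541 in WT+STZ.

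Brown fat cells also burn fatty acids, and fat cell markers were higher on the TG+STZ array. Of 9 measured, 8 lay above 0, with a median of 0.34 that became 0.24 without Cfd, 1.28 with no filter on dim probes and 1.67 with a laxer detection flag, and they summed to 47873 units in TG+STZ and 39221 in WT+STZ. Cfd read 1225 units in TG+STZ and 41.2 in WT+STZ, at 4.82 ± 0.22, and Cidea, a lipid droplet protein, stood at 2.90 ± 0.21. Of the other genes measured, Retn stood at 2.84, Cidec at 1.28 and Fabp4 at 0.34. Lipe, Pnpla2, Car3 and Cebpa stood at 0.03, 0.04, 0.13 and -0.11. Other cells also express several of the genes in this list. Ucp1, Adipoq and Plin1, also of this list, were well above background in TG+STZ alone, so they are not among the 9 measured. They stood 24.5-fold, 13.9-fold and 4.17-fold higher in TG+STZ. How many genes of the whole array were well above background on 1 array alone was not counted, so these genes cannot be set against such a share. Each of these folds sets the TG+STZ signal against the WT+STZ signal of that probe. Where it was higher, the lowest WT+STZ signal counted as well above background was used instead. For Plin1 the probe's own WT+STZ signal of 10.6 units was used, although it was not counted as well above background. The folds are thus no strict lower bounds, and they do not include scanner error. Lep was not well above background on either array. Fibroblast markers had 9 of 10 above 0 (24878 units in TG+STZ and 17777 in WT+STZ) and a median of 0.50, with Clec3b at 1.096 and Igfbp6 at 0.61, and leukocyte markers had 0 of 10 above 0 (21663 units in TG+STZ and 22505 in WT+STZ) and a median of -0.22, with Ms4a1 at -0.79 and S100a9 at -0.76. The part of these cells in the values of the 10 genes was not tested.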

How the data were processed

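The authors deposited 1 scanner table per array with, for each spot, a processed intensity, its error and flags. Per the file headers the software was Agilent Feature Extraction 10.7.1.1, whereas the submitters' processing notes give 10.3.1.1. In the deposited value table the intensity equalled that of the scanner tables at each of 44397 spots on both arrays (with no tolerance), so nothing had been normalized between arrays. Flags in the deposited tables, which score detection, saturation and outliers as 0 or 1, were used as given.

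Control spots were left out, as were 109 spots on the TG+STZ array and 114 on the WT+STZ array that were marked as outliers. Spots of a probe were averaged as log2 intensity after scaling by the 75th percentile, and probes of a gene were averaged where well above background and unsaturated on both arrays. A probe with several spots counted as above background if most of its spots were. The error of a gene combines the software's error of both arrays over its probes. Probes were named by accession through a RefSeq gene table of GRCm38.p6, which gave a symbol to 26410 probes and none to 13016. Promoter windows are RefSeq's on the same assembly.

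The 10 genes, the other gene lists and the settings were chosen with earlier results of these data known. The text names the 10 genes, Sirt1, a set of partners chosen for their role, and the 2 genes furthest from 0 in each other list, except for some that are not reported here. Eci1, Umod and some fat cell markers were added after their values were seen. Genes with likeness to the 10 were not ranked, since 2 arrays give 1 difference a gene. With 1 array per group, precision is limited by the number of arrays, and counts are set beside the share of all genes.

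Values were recomputed with scaling on the median, on detected probes alone or on spike-in probes, with quantile normalization, with loess on signal (span 0.3), with normexp on spot medians (offset 50), from the value table, with dim probes or outlier spots let in, with a laxer detection flag, with the brightest or the median probe of each gene, and with a 2-fold and a lower threshold. The steps were tested on simulated data. Tools were limma 3.58.1 in R 4.3.3, and numpy 2.4.6, statsmodels 0.14.6, pandas 2.3.3 and matplotlib 3.10.9 in Python 3.11.15.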

Additional observations from a re-analysis of the deposited data

How the results depend on the processing

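Over the 12 other settings the 10 genes had medians between 0.08 and 0.13 on the log2 scale, against medians of all genes between -0.05 and 0.03, and 7 or 8 of the 10 lay above 0. No member passed 1.5-fold under any of these settings. Cpt1a, Cpt2, Slc25a20, Acadm, Acadl, Acadvl and Etfdh lay above 0 and Hadha and Crat below 0 under each of them, and Hadhb changed side. Some of these settings could not move the 10 genes, whose values there were those of the main setting. Those were the value table, dim probes let in, the laxer detection flag, outlier spots kept and the median probe. The brightest probe could move Cpt1a and Cpt2 alone. The share of all genes above 0 itself ran from 36.8% under normexp to 57.8% under median scaling, so counts above 0 depend on where the arrays are centred. The median of PPAR-alpha responsive genes ran from 0.24 to 0.33. Without Acadl, the median of the other members was 0.09. The fat cell list moved most, to 1.28 with no filter on dim probes and 1.67 with the laxer detection flag, both of which let in more dim markers. Spike-in probes, added in known amounts, averaged -0.02 after scaling, over 8 probes. Taking fat cell markers out of the uptake list, an alternative chosen after seeing the data, moved its median to 0.012, with 10 of its genes above 0. No paired analysis was possible because each group has 1 array, and for the same reason no replicate could be left out.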

Other observations

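Probes of some genes beside the pathway disagreed by more than any member did. Bdh1, a ketone body dehydrogenase, had probes at -0.44, 0.23 and 0.30 on the log2 scale. The lowest of these was the dimmest, with 1274 units in TG+STZ and 1641 in WT+STZ. The probe of Ogdh at -0.50 was likewise the dimmest of its 3, with 1646 units in TG+STZ and 2201 in WT+STZ, while its others stood at -0.02 and 0.08. Acaca, the cytosolic carboxylase that makes malonyl-CoA, had probes from -0.23 to 0.18, of which the brightest was the highest. These genes were chosen after their values were seen. Of the 10 mitochondrial genes 8 rest on 1 probe each, so such disagreement could not be looked for in them. Both probes of Cpt1a and of Cpt2 lay on the same side of 0.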
